A study of Mus musculus with 22 samples.

Results

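Open chromatin in the frontal cortex was compared between mice collected 24 h after lipopolysaccharide (LPS) and mice given saline. The comparison took 5 of the 22 libraries of the series, which were replicates 1, 3 and 4 of the LPS 24 h group and replicates 2 and 3 of the saline group, each from a different animal. All were adult male C57BL/6J mice, wild type, in a model of Gulf War Illness. Both groups carried the same earlier exposure: corticosterone (CORT), the rodent stress glucocorticoid, in drinking water for 7 days, diisopropyl fluorophosphate (DFP), an organophosphate that blocks acetylcholinesterase, injected once into the abdomen on day 8, and further intermittent CORT over 5 weeks. LPS or saline was given on the last day. The saline mice were collected at 6 h, so LPS and the time of collection cannot be told apart, and a further baseline animal had been excluded for low read depth. OMNI-ATAC-seq, a form of ATAC-seq with less mitochondrial DNA, was run on 20 to 30 mg of frozen tissue, and reads were paired and 50 bp long.

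LPS is a component of the outer membrane of Gram-negative bacteria. Its receptor Tlr4 activates the NF-kB transcription factors and, through a second branch, interferon signalling, and in the brain the first responders are microglia, the resident macrophages, and the cells of the vessel wall. In ATAC-seq a transposase inserts adapters where DNA is not wrapped in nucleosomes, so that peaks mark open promoters and distal regulatory elements. Promoter peaks are shared between many cell types, while distal peaks are often particular to one. The tissue was profiled in bulk, so more cells of a type and more open DNA per cell cannot be told apart.

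The peak lists of the 5 libraries were of similar length. After LPS, replicates 1, 3 and 4 had 266402, 243813 and 280888 peak intervals, against 265193 and 219334 in saline replicates 2 and 3. The difference of 21438 intervals between the means was smaller than the spread between libraries (exact permutation test, two-sided p = 0.4, n = 3 and 2, where the smallest p this design allows is 0.2). Saline replicate 2 stood apart from the other 4 libraries. Over the windows with a peak in all 5, its peak strengths correlated with those of the LPS libraries at Spearman's rho of 0.759 to 0.778 and with saline replicate 3 at 0.781. The LPS libraries correlated with one another at 0.877 to 0.904 and with saline replicate 3 at 0.845 to 0.871, so the second saline library lay closer to the LPS libraries than to the first. The tissue label was checked against markers: of 21 excitatory neuron and cortical layer genes with a promoter in the reference, 17 had a promoter peak in all 5 libraries, and the promoters of Neurod6, Nrgn, Rorb and Tle4 lay above the 86th percentile of peak strength in each. Cux1, Bcl11b and Etv1 of the same list had no promoter peak in any of the 5. Of 20 inhibitory neuron genes 18 had a promoter peak in all 5 libraries, and of 21 striatal neuron genes 16. Such promoter peaks therefore cannot tell the cortex from neighbouring tissue.

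The promoters that best show the comparison are printed here, 250 bases up to the start site, 5′ to 3′ on the gene's strand, from RefSeq (GRCm38.p6). Bcl3 (a nuclear regulator of NF-kB, chr7:19822756-19823005, minus strand), Plek (pleckstrin, a signalling protein of white blood cells and platelets, chr11:17008719-17008968, minus strand), Icam1 (an adhesion molecule for leukocytes, chr9:21015690-21015939, plus strand) and Ifit3 (an interferon-induced antiviral protein, chr19:34583279-34583528, plus strand) had a peak at the start site in all 3 LPS libraries and in neither saline library. Ccl12 (a chemokine for monocytes, chr11:82101595-82101844, plus strand) had a stronger peak after LPS. Isl1 (a transcription factor of striatal and other neurons, chr13:116309689-116309938, minus strand) and Slc32a1 (the transporter that loads GABA into synaptic vesicles, chr2:158610508-158610757, plus strand) are 2 neuronal promoters that were called higher. Capitals mark matches, on either strand, to the kB consensus, the interferon-stimulated response element core (GAAA, 2 bases of any kind, GAAA), the AP-1 site TGANTCA, the cAMP response element TGACGTCA or the glucocorticoid response element (GNACA, 3 bases of any kind, TGTNC).
Bcl3: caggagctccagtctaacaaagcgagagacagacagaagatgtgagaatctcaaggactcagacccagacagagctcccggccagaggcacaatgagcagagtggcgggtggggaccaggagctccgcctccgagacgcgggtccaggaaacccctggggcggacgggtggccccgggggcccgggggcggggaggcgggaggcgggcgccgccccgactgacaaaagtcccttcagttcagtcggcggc
Plek: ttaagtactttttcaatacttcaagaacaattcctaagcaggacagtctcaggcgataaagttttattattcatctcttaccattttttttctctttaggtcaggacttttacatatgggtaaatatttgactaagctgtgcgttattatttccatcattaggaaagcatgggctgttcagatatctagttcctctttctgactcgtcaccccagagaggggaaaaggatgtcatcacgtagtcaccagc
Icam1: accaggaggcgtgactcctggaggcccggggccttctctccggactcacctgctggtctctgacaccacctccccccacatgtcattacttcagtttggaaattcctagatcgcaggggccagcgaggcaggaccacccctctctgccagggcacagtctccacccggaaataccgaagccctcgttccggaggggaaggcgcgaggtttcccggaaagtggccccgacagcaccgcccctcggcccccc
Ifit3: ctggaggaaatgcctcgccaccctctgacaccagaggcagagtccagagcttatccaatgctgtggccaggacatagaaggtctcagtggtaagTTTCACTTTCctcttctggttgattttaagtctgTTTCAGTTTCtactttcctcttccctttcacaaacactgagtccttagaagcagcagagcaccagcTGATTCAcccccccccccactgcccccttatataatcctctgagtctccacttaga
Ccl12: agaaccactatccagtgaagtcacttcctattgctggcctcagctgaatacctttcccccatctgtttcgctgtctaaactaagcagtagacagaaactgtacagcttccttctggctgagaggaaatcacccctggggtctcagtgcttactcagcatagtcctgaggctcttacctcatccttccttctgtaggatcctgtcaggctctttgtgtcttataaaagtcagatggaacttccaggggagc
Isl1: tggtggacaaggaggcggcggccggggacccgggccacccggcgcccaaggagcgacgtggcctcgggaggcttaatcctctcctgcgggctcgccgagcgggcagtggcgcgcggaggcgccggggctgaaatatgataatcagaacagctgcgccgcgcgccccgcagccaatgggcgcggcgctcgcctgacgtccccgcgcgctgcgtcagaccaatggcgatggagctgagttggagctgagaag
Slc32a1: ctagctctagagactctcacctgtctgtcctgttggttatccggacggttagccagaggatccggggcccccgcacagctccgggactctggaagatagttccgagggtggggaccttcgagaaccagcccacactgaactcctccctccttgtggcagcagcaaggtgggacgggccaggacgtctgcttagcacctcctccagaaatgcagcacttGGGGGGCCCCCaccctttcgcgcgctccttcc

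Ifit3 held 2 matches to the interferon-stimulated element core, which begin 156 and 122 bases before the start site, and 1 AP-1 match that begins 56 bases before it. Slc32a1 held 2 overlapping matches to the kB consensus. The other 5 printed promoters held none of these 5 motifs, which says only that the letters searched are not in this stretch. Over all 21263 protein-coding promoters in the table, the kB consensus was present in 7.91%, the interferon-stimulated core in 2.96%, the AP-1 site in 6.13%, the cAMP element in 1.92% and the glucocorticoid element in 0.357%. Of the 79 promoters that overlapped a gained window, 8 held the kB consensus (10.1%), 6 the interferon-stimulated core (7.59%), 9 the AP-1 site (11.4%), 1 the cAMP element (1.27%) and 0 the glucocorticoid element. Of the 29 that overlapped a lost window, 1 held the kB consensus (3.45%), 2 the interferon-stimulated core (6.90%) and 4 the AP-1 site (13.8%). The cAMP element was in 0 of these 29 and the glucocorticoid element in 1 (3.45%).

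Peaks of the 5 libraries were merged into 375275 consensus windows of equal width, each placed around a peak summit. Of these, 166890 (44.5%) had a peak in all 5 libraries and 88491 (23.6%) in only 1. A window was called gained when all 3 LPS libraries and neither saline library had a peak there, which held for 11329 windows (3.02% of all windows). A window was called lost when both saline libraries and no LPS library had a peak, which held for 3070 windows (0.818%). The 2 definitions ask for different numbers of libraries, so the 2 counts are not a balance of gain and loss. Neither call has a p-value, since an exact permutation test of presence in 3 libraries against 2 cannot go below 0.2 in any window. Without saline replicate 2 the gained windows numbered 29459 and the lost windows 14440, and without saline replicate 3 they numbered 20019 and 31687, so more windows were lost than gained once the smaller saline list was left out.

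Gained windows were weak peaks, and a larger share of them than of all windows lay far from genes. In LPS replicates 1, 3 and 4 their median strength lay at the 32.9th, 28.1st and 30.3rd percentile of the library's own peaks, against the 70.6th, 68.4th and 72nd percentile for windows present in all 5 libraries. Lost windows were weaker still, at the 21.8th percentile in saline replicate 2 and the 15.7th in saline replicate 3. Only 3.45% of gained windows lay within 1 kb of an end of a protein-coding gene, against 9.10% of all windows, 9.93% of lost windows and 13% of windows in all 5 libraries. As many as 24.7% of the gained windows lay over 100 kb from any protein-coding gene, against 14.5% of all windows and 8.66% of lost windows. In the whole peak lists, 8.55 ± 0.196% of intervals lay within 1 kb of a gene end after LPS and 9.44 ± 0.734% in saline (SD, n = 3 and 2). Each LPS library (8.42%, 8.78% and 8.47%) lay below both saline libraries (8.92% and 9.95%). The difference had the smallest p this design allows (exact permutation test, two-sided p = 0.2, n = 3 and 2). In each group the shortest list had the largest share, 8.78% of 243813 intervals in LPS replicate 3 and 9.95% of 219334 in saline replicate 3. On lists cut to their top 50000 peaks, LPS minus saline was 0.255 points in place of -0.882. The part of list length in the difference was not tested.

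**Figure D1:**
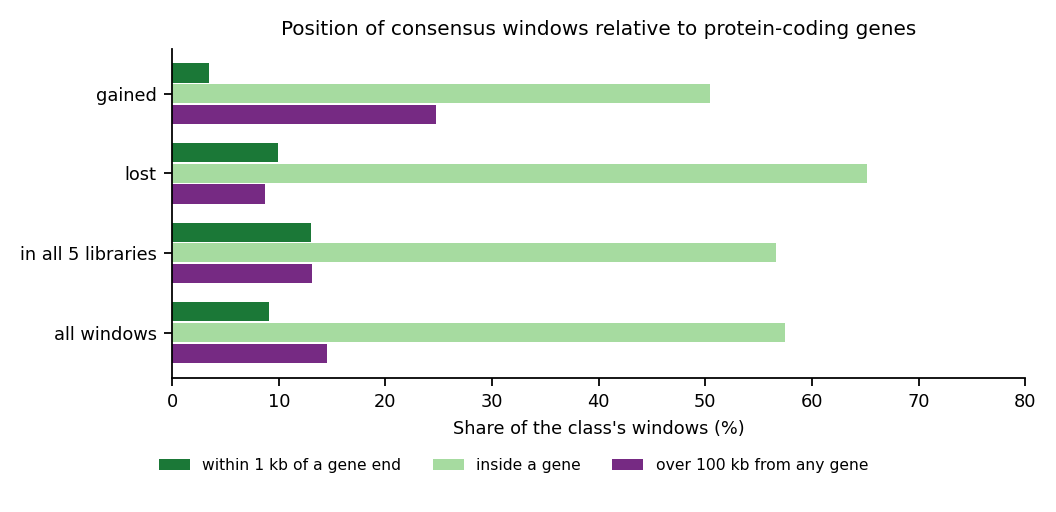
Share of consensus windows (%, horizontal axis) that lay within 1 kb of a gene end, inside a gene or over 100 kb from any protein-coding gene, for gained, lost, common and all windows. Gained windows had the smallest share near gene ends (3.45%) and the largest share over 100 kb away (24.7%).

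The gained windows were looked up in the cortex of LPS mice at the earlier times, which had no part in the choice of the windows. At 6 h, a peak was present at 63.7% of them in replicate 1, 21.6% in replicate 3 and 42.7% in replicate 4. At 12 h, the shares were 32.7%, 42.4% and 38.5%. Of all windows these libraries had a peak at 62.3%, 52.2% and 62% at 6 h and at 55.8%, 60.6% and 61.4% at 12 h. The share of gained windows was thus close to the share of all windows in replicate 1 at 6 h and under it in the other 5 libraries. A set of 680 gained windows (6%) had a peak in all 6 of these libraries, 1168 (10.3%) in none of them, and 2322 (20.5%) in replicate 1 at 6 h and no other. Of the lost windows, 26.4%, 20.1% and 33.2% carried a peak at 6 h and 19.8%, 27.2% and 31.3% at 12 h.

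The hippocampus of the same 5 animals gave a second readout. Of the gained cortex windows, 52.9%, 46.3% and 45.9% carried a peak in LPS 24 h hippocampus and 45.3% and 39.7% in saline hippocampus. Of all windows, 58.2%, 54.2% and 52.8% did so in LPS 24 h hippocampus and 61.5% and 51.5% in saline hippocampus. At gained windows the groups did not overlap, and the difference of 5.81 percentage points had the smallest p the design allows (exact permutation test, two-sided p = 0.2, n = 3 and 2). With only peaks of −log10 q of 5 or more the difference was 2.62 points (exact permutation test, two-sided p = 0.8), and without LPS replicate 1 it was 3.18 points. For lost windows the LPS 24 h hippocampi had 29.7%, 25.3% and 23.5%, against 46.6% in saline replicate 2 and 24.6% in saline replicate 3. That difference rested on 1 animal: without it the means differed by 0.572 points.

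**Figure D2:**
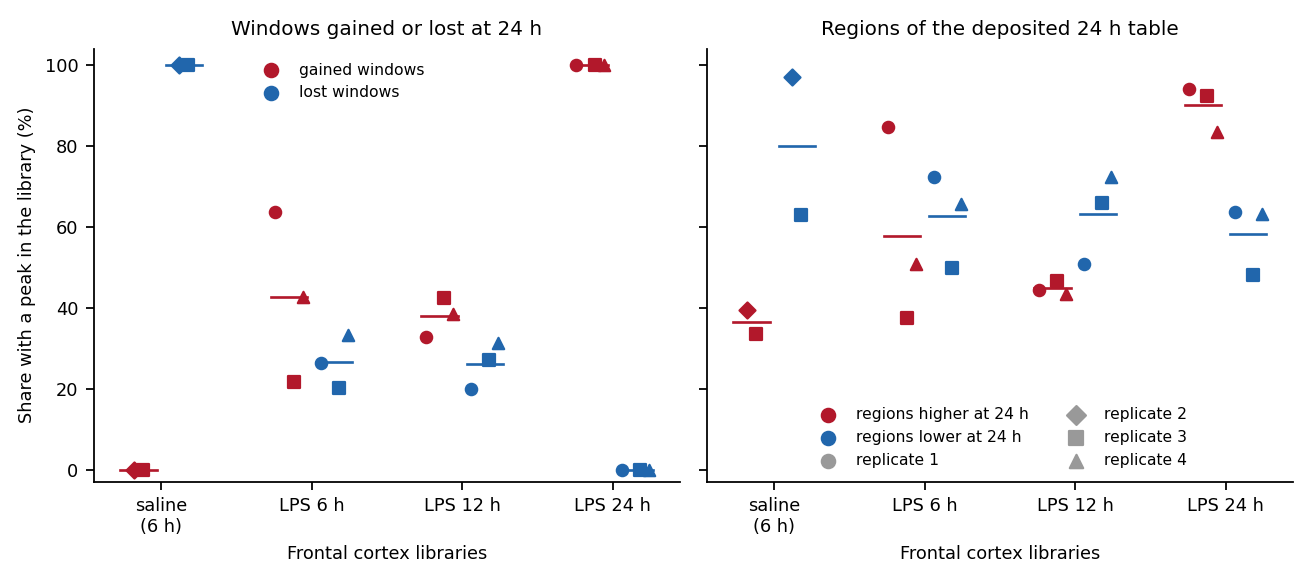
Share of windows (left panel) and of regions in the authors' deposited table (right panel) with a peak in each frontal cortex library (%), by group; symbols are libraries, marked by replicate number, and lines are group means. In the left panel the saline and LPS 24 h values are 0 or 100 by definition; LPS 6 h replicate 1 has 63.7% of gained windows and 84.7% of the regions higher at 24 h.

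The authors' deposited table for this comparison lists 4986 regions higher and 554 lower after LPS at an FDR of 0.05, from read counts that are not used here. Windows at higher regions of the authors' deposited table made up 1.32% of all windows and windows at lower regions 0.15%. Of the 4968 windows at a higher region of the authors' deposited table, 1758 (35.4%) were gained and 1356 (27.3%) had a peak in all 5 libraries, while seen from the gained windows 15.5% lay at such a region. At the windows present in all 5 libraries, the median percentile rank at higher regions of the authors' deposited table was 64.1, 64.8 and 52.7 in LPS replicates 1, 3 and 4, against 24.2 and 31.4 in saline replicates 2 and 3. The lower regions of the authors' deposited table divided the saline libraries: a peak was present at 63.7%, 48% and 63.2% of them in the LPS libraries, at 96.9% in saline replicate 2 and at 63% in saline replicate 3. Their median rank was 36.8, 22.1 and 30.7 after LPS, against 85.7 in saline replicate 2 and 47.9 in saline replicate 3. Of the 554 lower regions in the authors' deposited table, 106 had a peak in saline replicate 2 alone and 1 in saline replicate 3 alone, while 31 had a peak in both saline libraries and no LPS library. Since the regions were chosen on these libraries, none of these shares is a test.

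Gained windows overlapped the promoters of 74 of 17492 genes (0.423%) and lost windows those of 25 genes (0.143%). Of the 74, 16 innate immune genes are described here, picked out after their values were seen, and the rest ranged from Gdnf, Wnt3 and Ednrb to Slc17a6. The share of innate immune genes among all 17492 was not counted, so the 16 cannot be read as an excess. Those of myeloid cells were Itgam (the integrin chain CD11b), Ly86 (a partner of the LPS sensor-like protein Cd180), Syk (a kinase downstream of immune receptors), Igsf6, Clec12a (an inhibitory lectin receptor), Aoah (the enzyme that deacylates LPS) and Plek. The interferon-related genes were Ifit3, Slfn2, Slfn8, Epsti1, Trim30d and Ifitm6. The others were Icam1, Bcl3 and Tnfsf10 (the death ligand TRAIL). Syk, Gdnf and Slc17a6 each had another start-site window with a peak in all 5 libraries. At Syk this other window was at the 81st, 77th and 75.7th percentile after LPS, against the 72nd and 84.3rd in saline.

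The Bcl3 window (chr7:19822579-19823079) was at the 51st, 18.4th and 62.4th percentile of peak strength in LPS replicates 1, 3 and 4 and had no peak in either saline library. It had a peak in all 3 LPS libraries at 6 h and all 3 at 12 h as well, between the 12.5th and the 64.8th percentile. Plek (chr11:17008458-17008958) was alike, at the 46.4th, 38th and 50.1st percentile at 24 h, none in saline and a peak in each of the 6 earlier LPS libraries. These 2 genes were among 5 of the 74 whose gained promoter window had a peak in all 9 cortical LPS libraries, with Gpm6a, Myh4 and Sertad4. The same held for 680 of all 11329 gained windows (6%), so it was not particular to these promoters. Slfn2 (29.6th, 37.9th and 56th percentile) and Aoah (42.7th, 3.8th and 36.9th percentile), neither with a saline peak, had one in 5 of the 6 earlier LPS libraries.

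Icam1 was at the 26.4th, 24.6th and 23.5th percentile at 24 h with no saline peak, and in 3 of the 6 earlier LPS libraries. Ifit3, whose promoter with 2 interferon-stimulated element matches is printed above, was at the 39.7th, 18.4th and 33.7th percentile with no saline peak, and in 3 of the 6 earlier libraries. Itgam, at the 15.8th, 7.7th and 55.7th percentile, had peaks in 2 of the 6, both at 12 h. Tnfsf10 had a peak in none of the 6 and lay at the 25th, 3.8th and 18.4th percentile at 24 h. None of these 4 promoters lay above the 55.7th percentile at 24 h.

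Ccl12 did not depend on presence. Its start-site window (chr11:82101491-82101991) had a peak in all 5 libraries, at the 82.7th, 73.6th and 81.1st percentile after LPS and the 24th and 28.1st in saline, and in the 6 earlier LPS libraries it lay between the 62.3rd and the 85.5th percentile. All 9 cortical LPS libraries were therefore above both saline libraries. The promoter was picked after its values were seen, so its saline values are low by that choice and this is no test. The authors' deposited table called a region at this promoter higher at 24 h with an FDR of 0.00793, and did not list it at 6 h or 12 h. The Clec12a promoter was also higher in the authors' deposited table, with an FDR of 2.11e-06. The promoters of 72 genes (0.412%) overlapped a window ranked at least 10 percentile points higher in every LPS than in every saline library, and those of 53 genes (0.303%) a window ranked lower. The 72 included several receptors and signalling proteins of myeloid cells: Fcer1g (the signalling chain of Fc receptors) was at the 67.5th, 55th and 65.4th percentile after LPS and the 24.5th and 28.9th in saline. Inpp5d (the lipid phosphatase SHIP1) was at the 51.5th, 46.4th and 57.7th percentile after LPS and the 4.2nd and 20.9th in saline. Siglech, a microglial lectin, was at the 75th, 71.1st and 85.2nd percentile after LPS, against the 49.3rd and 52.5th in saline. Fcgr3, Lcp2, Cd180, Clec4a1, Slamf9, Tnfrsf1b (a receptor of tumour necrosis factor) and Nfkb2 were also among them. The 53 ranked lower held immune genes too, among them Il16 and Rsad2 (the antiviral protein viperin). Rsad2 was at the 65.2nd, 53.8th and 60.8th percentile after LPS, against the 79.9th and 71.9th in saline. All of these were picked out after their values were seen, and the share of such genes among all promoters was not counted.

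**Figure D3:**
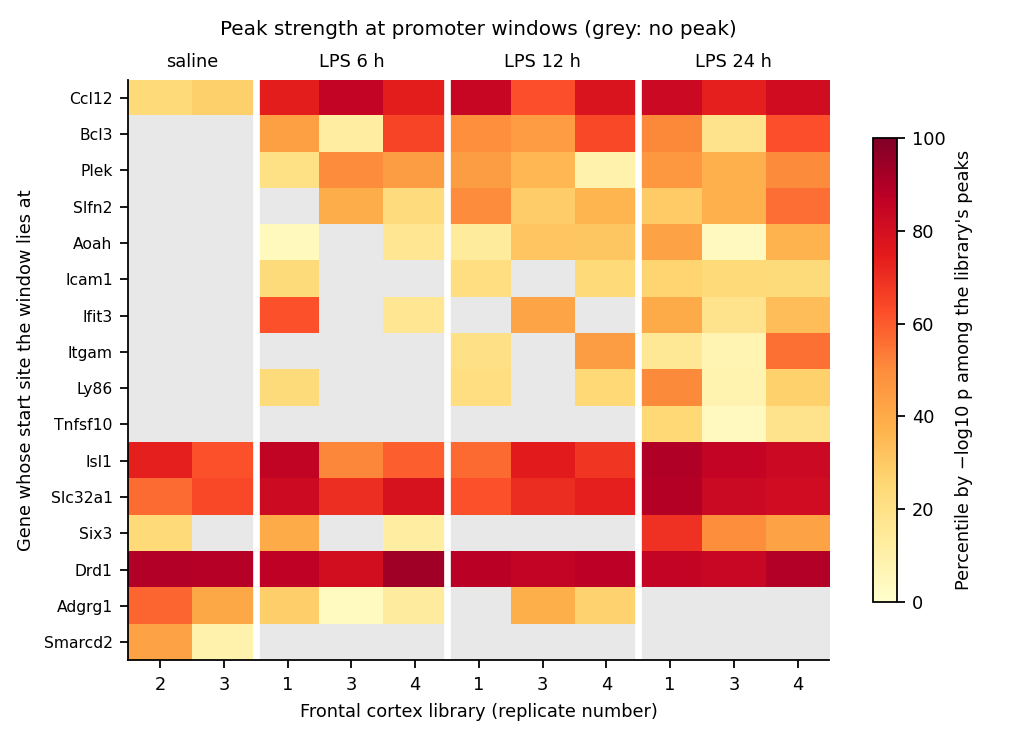
Peak strength at 16 promoter windows in the 11 frontal cortex libraries, as the percentile by −log10 p among the library's own peaks (colour), with grey for no peak. Ccl12 is strong in all 9 LPS libraries and weak in saline, Bcl3 and Plek have a peak in every LPS library and none in saline, and Tnfsf10 has a peak at LPS 24 h only. The windows were picked after their values were seen.

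Promoters as a whole stood higher in the LPS libraries. Over all 17492 genes, with 0 for a promoter without a peak, the mean percentile was 54.4, 53.6 and 53.6 after LPS, against 52.5 and 52.6 in saline. At 2733 of them (15.6%) all 3 LPS libraries were above both saline libraries, and at 367 (2.1%) all 3 were below. Only 11424 of the 17492 had a promoter peak in at least 1 of the 5 libraries, and the rest can be neither above nor below. Lists with more such promoters are therefore not on an equal footing with the 15.6%. The sums over list promoters are to be read against the higher means after LPS. In 7 of the 17 lists all 3 LPS sums exceeded both saline sums, namely the microglial, inflammatory, interferon, clock, excitatory, inhibitory and hippocampal lists. The share of promoters above saline in all 3 LPS libraries was largest in the clock list (38.9%), followed by the microglial (38.5%) and striatal (38.1%) lists. It was 28.6% in the excitatory list. It was under 15.6% in the prostaglandin (12.5%), cholinergic (9.52%), astrocyte (13.3%), endothelial (0%) and blood (0%) lists.

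Over the 13 microglial genes with a promoter in the reference, the percentiles summed to 745, 644 and 822 in the LPS 24 h libraries and to 534 and 599 in saline. Of these 13, 5 were above saline in all 3 LPS libraries (38.5%, against 15.6% of all genes) and 0 below, and Aif1 had no peak in any of the 5 libraries. Itgam, Ly86 and Siglech are among the 13 and had already been picked for their difference, and without these 3 the sums were 605, 558 and 654 after LPS, against 486 and 547 in saline. Of the 10 genes left, 2 were above saline in all 3 LPS libraries (20%, near the 15.6% of all genes) and 0 below. Members differed: Cx3cr1, a receptor that marks microglia, was at the 74.6th, 75.2nd and 84.7th percentile after LPS and the 67.1st and 69.2nd in saline. C1qc, a complement subunit, was at the 68.7th, 68.6th and 77.5th after LPS, against the 70.5th and 82.3rd in saline. P2ry12, a purine receptor of resting microglia, was at the 52.7th, 46.5th and 50.3rd after LPS, between the saline values of 11.7 and 60.6. In the earlier libraries the sums over the 13 were 645, 502.9 and 626 at 6 h and 688, 601 and 759 at 12 h. The part of microglial number in the immune promoters was not tested.

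Inflammatory promoters summed to 1813, 1683 and 1691 after LPS, against 1632 and 1589 in saline. Of the 33 genes, 9 were above saline in all 3 LPS libraries (27.3%, against 15.6% of all genes) and 2 below (6.06%, against 2.1%). A promoter peak in at least 1 of the 5 libraries was present at 27 of the 33, against 11424 of all 17492 genes. Interferon promoters summed to 1451, 1321 and 1386 after LPS, against 1283 and 1211 in saline, with 8 of 25 genes above (32%) and 1 below (4%). Such a peak was present at 19 of these 25. Blood cell markers had few promoter peaks: 15 of 17 leukocyte and erythroid genes, among them S100a9, Ly6g, Ccr2, Cd3e and Mpo, had none in any of the 5 libraries. S100a8, a neutrophil gene, had one in saline replicate 2 only, at the 37.8th percentile. Of the 60 windows near blood genes, 55%, 55% and 66.7% carried a peak in the LPS libraries, against 83.3% in saline replicate 2 and 45% in saline replicate 3. Relative to all windows of the same library this was 12.5 points more in saline replicate 2 and 7.48 to 16.4 points less in the other 10 cortical libraries. Endothelial windows were also 5.85 points over all windows in saline replicate 2. The part of these cells in the results that rest on that library was not tested.

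Over whole gene neighbourhoods the microglial and interferon lists had a gained share near the background. The inflammatory list had one somewhat over it, though not without saline replicate 2. For higher regions of the authors' deposited table the immune lists stood near or under the background. Each window was assigned to the nearest protein-coding gene within 100 kb. Of 541 windows at the 44 inflammatory and NF-kB response genes, 20 were gained (3.70%, against 3.02% of all windows) and 3 lost (0.555%, against 0.818%). Of 235 windows at 30 interferon response genes, 7 were gained (2.98%) and 2 lost (0.851%), and of 325 at 20 microglial marker genes 11 were gained (3.38%) and 2 lost (0.615%). The gained windows included 2 at Il1b (interleukin-1 beta), 2 at Il6ra (the interleukin-6 receptor), 2 at Tlr4, 2 at Vcam1 (an endothelial adhesion molecule), 2 at Irf8 (a transcription factor of microglia) and 1 each at Il6, Ccl2, Ccl5 and Cd14. With −log10 q of 5 or more the gained shares were 4.24% (inflammatory), 5.37% (interferon) and 3.35% (microglial), against 3.17% of all windows. Among the 50000 strongest peaks of each library they were 3.57%, 0 and 3.70%, against 1.63%. The order turned with the library left out: without saline replicate 2 the inflammatory share was 7.42%, against 8.50%. Without LPS replicate 4 the microglial share was 3.95%, against 4.88%. Windows at higher regions of the authors' deposited table made up 1.29% of the inflammatory, 0.426% of the interferon and 0.308% of the microglial windows, against 1.32% of all windows. At the inflammatory genes the authors' deposited table held 7 higher regions, at 6 genes, and 0 lower: 2 at Tlr2, and 1 each at Tlr4, Vcam1, Nfkbia, Nfkbiz and Irak3. The region near Vcam1 (chr3:116148401-116148560) had a peak in all 3 LPS libraries and in neither saline library, and an FDR of 2.03e-06 in the authors' deposited table. The region near Nfkbia, the inhibitor that NF-kB itself induces, was alike (chr12:55512501-55512710), with an FDR of 0.0047 in the authors' deposited table. All 7 had a peak in replicate 1 at 6 h, 2 to 4 of the 7 in the other 5 earlier LPS libraries, and 3 and 2 in saline replicates 2 and 3.

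Markers of striatal medium spiny neurons had the largest share of windows at higher regions among the 17 lists. These are the projection neurons of the striatum, a region that lies next to the frontal cortex. Of their 1147 windows, 46 lay at a higher region of the authors' deposited table (4.01%, against 1.32% of all windows) and 0 at a lower one (0.15%). The authors' deposited table had 45 higher regions at 22 of the 26 genes and 0 lower. Pde10a, a phosphodiesterase of these neurons, had 8, Meis2 and Rarb, transcription factors of the striatal lineage, had 5 each, Arpp21 had 4, Adcy5 had 3, and the dopamine receptors Drd1 and Drd2 had 1 each in the authors' deposited table. Ppp1r1b (DARPP-32), Scn4b, Sp9 and Tac1 (the substance P precursor) had none. Of the windows at these genes, 54 were gained (4.71%) and 9 lost (0.785%), including 7 gained at Arpp21, 7 at Foxp1 and 6 at Foxp2. The list had been written after an earlier look at these data, so its counts are a description.

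The Drd1 region (chr13:54030751-54030960, 20328 bp from the gene) had a peak in all 3 LPS libraries and in neither saline library, with an FDR of 1.82e-09 in the authors' deposited table. The Adora2a region (chr10:75341001-75341110, 6263 bp from the adenosine receptor gene) was alike, with an FDR of 4.05e-04 in the authors' deposited table. The window at the Drd1 start site did not stand apart, at the 85th, 83.9th and 89.3rd percentile after LPS and the 89.1st and 88.5th in saline, although a Drd1 promoter also overlapped a window that ranked higher. The Isl1 promoter was at the 89.6th, 85.1st and 82.5th percentile after LPS, against the 73.6th and 62.1st in saline, with an FDR of 0.00547 in the authors' deposited table. Six3, a transcription factor of striatal neurons, was at the 69.5th, 49.2nd and 42.6th percentile after LPS, against the 24th in saline replicate 2 and no peak in saline replicate 3, with an FDR of 5.22e-04 in the authors' deposited table.

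The libraries of 1 time point did not act alike at these genes. Of the 45 higher regions of the authors' deposited table at striatal markers, 44, 44 and 41 had a peak in the LPS 24 h libraries, against 27 in saline replicate 2 and 15 in saline replicate 3. At 6 h, 41 had a peak in replicate 1, 16 in replicate 3 and 28 in replicate 4, and at 12 h the numbers were 21, 25 and 18. The percentiles of the 21 striatal promoters summed to 1526, 1467 and 1321 in LPS replicates 1, 3 and 4, against 1354 in saline replicate 2 and 1278 in saline replicate 3, so LPS replicate 4 lay between the saline libraries. At 6 h they summed to 1459, 1218 and 1322, and at 12 h to 1291, 1269 and 1349. Of the 21, 2 had no promoter peak in any of the 5 libraries, Ebf1 among them. The share of striatal tissue in each dissection was not tested.

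Inhibitory neuron and astrocyte genes had a larger share of gained windows than all windows had, though not under each setting. Among the 50000 strongest peaks of each library the inhibitory genes had 1.53%, against 1.63% of all windows, and the astrocyte genes 0. With −log10 q of 5 or more the astrocyte genes had 1.73%, against 3.17% of all windows. Of 796 windows at the 29 inhibitory neuron genes, 36 were gained (4.52%) and 5 lost (0.628%), and the authors' deposited table had 16 higher and 0 lower regions there (windows at higher regions were 2.14% of the list's, against 1.32% of all). Adarb2, Erbb4 and Sox6, which mark interneuron classes or their development, had 6 gained windows each. The Slc32a1 promoter was at the 88.8th, 83rd and 81.4th percentile after LPS, against the 56.4th and 63.7th in saline, with an FDR of 0.0267 in the authors' deposited table. Sst, the somatostatin gene of an interneuron class, had a promoter at the 45.4th, 39.8th and 47.5th percentile after LPS and the 15th and 13.8th in saline. In all, 5 of 20 inhibitory promoters were above saline in all 3 LPS libraries (25%, against 15.6% of all genes) and 0 below (against 2.1%). Of these 20, 19 had a promoter peak in at least 1 of the 5 libraries, against 11424 of all 17492 genes. Satb1, a transcription factor of interneurons and other cells, had a start-site window that ranked lower, at the 65.5th, 52.3rd and 64.6th percentile after LPS and the 78.2nd and 80th in saline. The strongest peak at its promoter in the reference was at the 81.5th, 83.7th and 73.7th after LPS, against the 81.5th and 80th in saline. Lhx6, another interneuron factor, was at the 43.7th, 52nd and 64.5th after LPS and the 58.3rd and 60.6th in saline. Of 432 windows at 20 astrocyte genes, 20 were gained (4.63%) and 3 lost (0.694%), with 4 gained at the glutamate transporter gene Slc1a3 and 3 at Id4. Astrocyte windows ranked lower more often than higher, 16 (8.25%, against 2.83% of all ranked windows) and 2 (1.03%, against 3.09%).

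**Figure D4:**
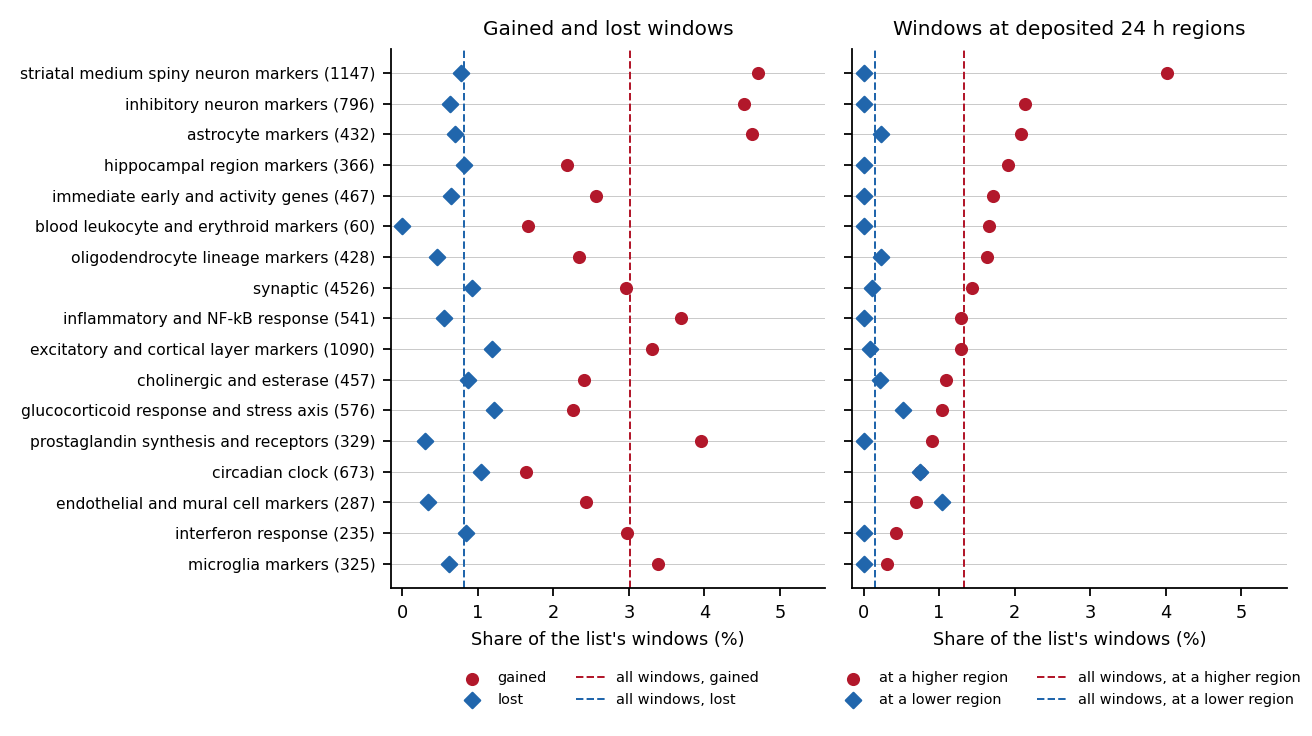
Share of each list's windows (%, horizontal axis) that were gained or lost (left) or lay at a region higher or lower in the authors' deposited table (right); the number of windows is in brackets and dashed lines are the shares over all windows. Striatal medium spiny neuron markers have 4.71% gained and 4.01% at higher regions, against 3.02% and 1.32% of all windows.

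Excitatory neuron genes stood near the background for gained windows, and oligodendrocyte and endothelial genes under it. At the 27 excitatory and cortical layer genes, 36 of 1090 windows were gained (3.30%) and 13 lost (1.19%). Syt6, a deep-layer marker, had 5 of this list's 14 higher regions in the authors' deposited table. At the oligodendrocyte lineage genes 10 of 428 windows were gained (2.34%), and at the endothelial and mural cell genes 7 of 287 (2.44%). The endothelial list had 3 lower regions in the authors' deposited table, at Cdh5 and Cldn5, which form the junctions of brain vessels, and at Tek, the angiopoietin receptor, against 2 higher ones. Windows at lower regions of the authors' deposited table were 1.05% of this list's windows, against 0.15% of all, and those at higher regions 0.697%, against 1.32%. All 3 lower regions of the authors' deposited table still had a peak in LPS replicates 1 and 3, and 2 of them in replicate 4, against 3 in saline replicate 2 and 2 in saline replicate 3. The hippocampal markers, a check on neighbouring tissue, had 8 of 366 windows gained (2.19%), with 5 higher regions at Zbtb20 in the authors' deposited table.

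Glucocorticoid and clock genes had gained shares under the background and lost shares over it, but the order turned with the setting. With −log10 q of 5 or more the glucocorticoid genes had 3.51% gained, against 3.17% of all windows, and 0 lost, while the clock genes had 2 of 428 windows lost, against 0.513% of all windows. Among the 50000 strongest peaks the clock genes had 2.74% gained, against 1.63%, and without saline replicate 3 the glucocorticoid genes had 5.63%, against 5.51%. At 22 glucocorticoid response and stress axis genes, 13 of 576 windows were gained (2.26%) and 7 lost (1.22%, against 0.818%). Of the 7 lost, 4 were at Sgk1, a kinase that glucocorticoids induce, while Nr3c2, the mineralocorticoid receptor gene, had 4 gained. Fkbp5, a chaperone of the glucocorticoid receptor and a classic target of it, had the list's 2 lower regions in the authors' deposited table, and 1 of its 6 higher ones. The first lower Fkbp5 region (chr17:28487551-28488860) had a peak in LPS replicate 1 and in both saline libraries, with an FDR of 1.90e-04 in the authors' deposited table. The other lower Fkbp5 region, in an intron (chr17:28414201-28414360), had a peak in saline replicate 2 alone, with an FDR of 0.0429 in the authors' deposited table. The Fkbp5 promoter was at the 99.4th, 98.7th and 99.1st percentile after LPS, against the 95.9th and 99.4th in saline. Of 673 windows at 22 circadian clock genes, 11 were gained (1.63%) and 7 lost (1.04%). Of the 18 clock promoters in the reference, 7 were above saline in all 3 LPS libraries (38.9%) and 0 below. Nfil3, Cry2 and Arntl, parts of the clock or its output, had 1 lower region each in the authors' deposited table, against 5 higher ones at 2 other clock genes. Collection at another hour of the day comes with the 24 h group, so LPS and clock time cannot be told apart there.

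Of 329 windows at prostaglandin genes 13 were gained (3.95%, against 3.02% of all windows) and 1 lost (0.304%, against 0.818%). Of the gained windows, 4 were at Pla2g4a, which frees arachidonic acid, and 4 at Tbxas1, the thromboxane synthase gene. Of 457 windows at cholinergic and esterase genes, the target system of DFP, 11 were gained (2.41%, under the 3.02% of all windows) and 4 lost (0.875%, against 0.818%). At the immediate early and activity genes 12 of 467 were gained (2.57%, under the 3.02% of all windows), 2 of them at Jun and 2 at Egr2. The 45 synaptic genes held 4526 windows, of which 134 were gained (2.96%, against 3.02%) and 42 lost (0.928%, against 0.818%). This long list had the most higher regions in the authors' deposited table, 63 against 4 lower, and its windows at higher regions of the authors' deposited table were 1.44%, against 1.32% of all windows.

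The 10 genes with the most gained over lost windows were all long. Cntnap2, a neurexin family member of 2241 kb, had 21 gained and 0 lost of 254 windows (8.27% gained). Dlg2, a scaffold of the postsynaptic density, had 24 gained and 3 lost of 528 (4.55%), and Rbfox1, a neuronal splicing factor, had 23 gained and 4 lost of 514 (4.47%). Robo2, Lsamp, Ntm, Asic2, Lrp1b, Lrrc4c and Mdga2 followed with 13 to 19 gained windows each, and the share was highest at Mdga2 (13 of 122 windows, 10.7%). All 10 spanned more than 760 kb, and a count of windows grows with the length of the gene. In the authors' deposited table Dlg2 had 14 higher regions, Ptprn2 12, Rbfox1 11 and Auts2 10. On the other side Nrcam, a neuronal adhesion gene, had 8 lost and 3 gained of 118 windows, Carmil1 had 5 and 1 of 86, and Hspa12a, Myo18b, Sgk1 and Ssbp2 had 4 lost and 0 gained each.

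Peak strength was also ranked over the 165126 windows that had a peak and a summit in all 5 libraries. At 5095 windows (3.09%) every LPS library was at least 10 percentile points above every saline library, and at 4675 (2.83%) every LPS library was as far below. Windows that ranked higher were close to a gene end (within 1 kb) at a rate of 3.55%, against 7.64% for those that ranked lower and 12.6% for all ranked windows. Of the windows ranked higher, 11.4% lay at a higher region of the authors' deposited table, against 0.815% of all ranked windows.

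The largest gap lay in Endov, the gene of a nuclease for inosine-containing RNA (chr11:119491613-119492113), which ranked at 84.8, 86.5 and 74.6 after LPS and at 0.6 and 6.9 in saline. In the LPS libraries of 6 h and 12 h it ranked from 20.1 to 78.4. In the hippocampus it ranked at 78.2 and 69.7 in LPS replicates 3 and 4 and at 63.4 in saline replicate 2, without a value in LPS replicate 1 and saline replicate 3. Mertk, a receptor by which microglia take up dying cells, held the fourth largest (chr2:128770997-128771497), at 76.7, 69.3 and 74.9 after LPS, against 8.1 and 14.4 in saline. The earlier LPS libraries ranked it from 50.8 to 64.5, so all 9 cortical LPS libraries were above both saline libraries. The window was chosen for its gap, so its saline ranks are low by that choice and this is no test. In the hippocampus of the same animals it ranked at 59.8, 46.8 and 57.8 after LPS, against 40.9 and 34.4 in saline, again without overlap. The authors' deposited table called this Mertk region higher with an FDR of 0.0271. Tmem119, a defining microglial gene, had a window 6567 bp away (chr5:113786912-113787412) that ranked at 66.4, 68.5 and 71.4 after LPS, against 21.7 and 32.4 in saline. At 6 h it ranked at 22, 23.2 and 39.4, and at 12 h at 56.9, 56.3 and 68.4. In the hippocampus the groups overlapped there, at 61.8, 64 and 48.3 after LPS, against 23.8 and 52.2 in saline. A window near Il6st, the shared receptor chain of the interleukin-6 family (chr13:112439940-112440440), ranked at 59.7, 62.2 and 59.6 after LPS, against 6.3 and 26 in saline. In the hippocampus the groups overlapped there too, at 51.2, 59.9 and 41.1 after LPS, against 42.7 and 47.8 in saline. Isx and Grk3 held gaps of 56.4 and 55.9 points. In the hippocampus the Isx window ranked at 89.8, 94.7 and 91 after LPS, against 92.3 and 90.3 in saline. The Grk3 window ranked there at 74.3, 80 and 80.4, against 45.8 and 61.6.

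Below saline, the largest gap lay in Knl1, a kinetochore gene (chr2:119047096-119047596), at 3.2, 18.3 and 3.6 after LPS and 85 in both saline libraries. At 5 of the 6 earlier LPS libraries it ranked from 84 to 89.9, and in LPS 12 h replicate 4 at 10.1. In the hippocampus it ranked at 85.8, 89 and 90.4 after LPS, against 84.7 and 87.6 in saline. The low rank was thus seen in the 3 LPS 24 h libraries and 1 library of 12 h, all of the cortex. Mapk1ip1, Nxpe3, Mgat5 and Rcc1l followed with gaps of 45.5 to 51.5 points. Among list genes, a window in Arntl, the core clock activator (chr7:113277952-113278452), ranked at 2, 5 and 13.6 after LPS, against 58.8 and 53 in saline. Windows in the glutamate receptor genes Grin2a (1, 7.6 and 7.9 after LPS, against 46.5 and 64.3 in saline) and Grik5 were also among the 8 largest. In Tek (chr4:94874725-94875225) a window ranked at 8.8, 2.5 and 6.8 after LPS, against 57.9 and 46.1 in saline, and the earlier LPS libraries lay between 11.3 and 42.3. These windows were selected for their gap, so their values are a description.

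**Figure D5:**
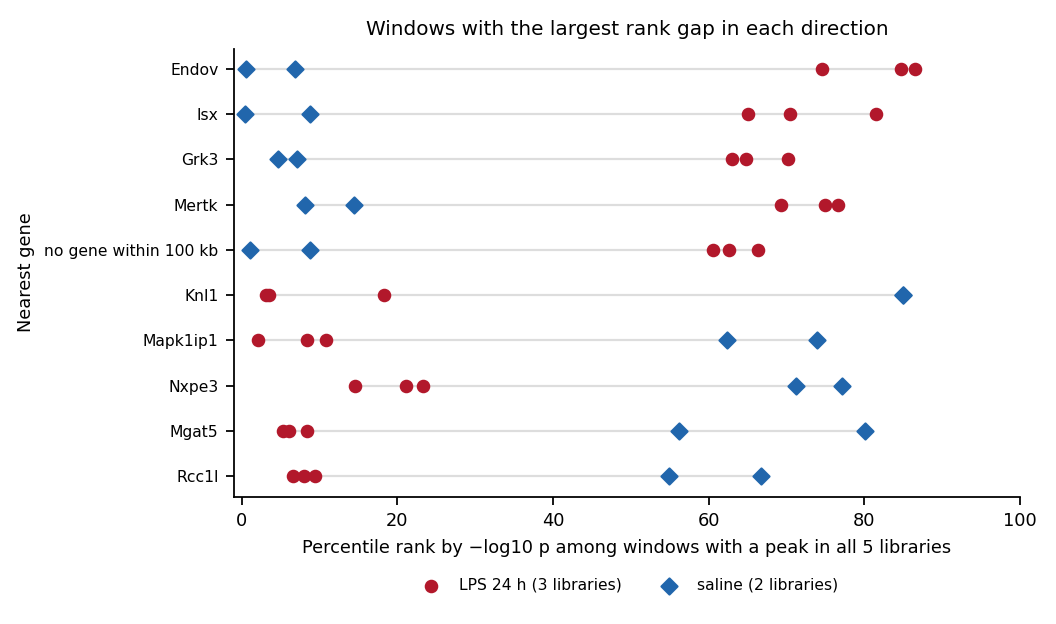
Percentile rank by −log10 p (horizontal axis) in each of the 5 libraries for the 5 windows per direction with the largest gap between groups, by nearest gene; circles are LPS 24 h and diamonds saline libraries. Endov ranks at 74.6 to 86.5 after LPS and 0.6 to 6.9 in saline, and Knl1 at 3.2 to 18.3 after LPS and 85 in saline.

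Promoters lost after LPS were few and weak. Adgrg1, an adhesion receptor of microglia and neural progenitors, lost its window at 1 start site (chr8:94976696-94977196), which was at the 58.1st and 40.8th percentile in saline, without a peak in any LPS 24 h library but with one in 5 of the 6 earlier LPS libraries, while another start site of the gene lay above the 87th percentile in each of the 5 libraries. Smarcd2, a subunit of a chromatin remodelling complex, had a window at the 42.8th and 9.2nd percentile in saline and no peak in any of the 9 cortical LPS libraries. Satb1 and Sbno2 each lost 1 of several start-site windows, none of them above the 15.3rd percentile in saline.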

How the data were processed

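Peaks had been called per library, so libraries, each from its own animal, are the replicates. Per the submitters' processing notes the tools included Bowtie2 2.4.4, MACS2 2.2.7.1, Trim Galore 0.6.7 and FastQC 0.11.9, on GRCm38 (mm10). No source used here says whether reads were shifted for the transposase. The deposited peak lists hold the authors' score, fold enrichment (a ratio), −log10 p-value and −log10 q-value of every peak. These serve here to order and filter the peaks of one list and are not compared as levels between lists. The deposited csaw table holds each region's direction and a figure taken as −10 × log10 FDR, without fold changes. Read depth is unknown, so no counting intervals are given.

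Windows were placed around summits on chromosomes 1 to 19, X and Y, from the highest score relative to the library's total, without overlap. A peak was present where it overlapped a window or region by at least 50% of the shorter. Genes came from RefSeq, each window going to the closest protein-coding gene up to 100 kb away. Strength is the percentile by −log10 p. Single values per library were compared by an exact permutation test over the 10 splits, two-sided, with the smaller one-sided p doubled. Genes were named by FDR, net number of gained windows, rank gap and list, by a written rule, and promoters after their values were seen. The members and lists were chosen with earlier results of these data known. Steps were tested on simulated data, with Python 3.11.15, numpy 2.4.6, pandas 2.3.3, scipy 1.17.1 and numba 0.67.0.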

Additional observations from a re-analysis of the deposited data

Results flagged for a closer look

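The regions that the authors' deposited table called higher at 24 h were also looked up in the cortex of LPS mice at 6 h and 12 h, libraries outside the comparison, and 5 of these 6 exceeded both saline libraries (39.4% and 33.5% of the regions with a peak). At 6 h, a peak was present at 84.7% of the regions of the authors' deposited table in replicate 1 and at 50.8% in replicate 4. At 12 h, a peak was present at 44.3% of the regions of the authors' deposited table in replicate 1, 46.6% in replicate 3 and 43.4% in replicate 4. Replicate 3 at 6 h, with 37.4%, lay between the saline libraries. The 3 LPS 24 h libraries had 94.1%, 92.3% and 83.4% of the regions of the authors' deposited table, so replicate 1 at 6 h exceeded 1 of them. The regions of the authors' deposited table were chosen against these 2 saline libraries, so the saline shares are low by that choice and no test of the difference was made. Over all windows the earlier libraries had a peak at 62.3%, 52.2% and 62% at 6 h and 55.8%, 60.6% and 61.4% at 12 h, so only replicate 1 at 6 h was above its own share of all windows.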

How the results depend on the processing

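Counts of windows depended on which libraries entered. Leaving out 1 library at a time gave 17014 to 29459 gained windows in place of 11329, 3919 to 31687 lost windows in place of 3070, 7735 to 24094 windows ranked higher in place of 5095 and 7274 to 24459 ranked lower in place of 4675, since fewer libraries have to satisfy each definition. Without saline replicate 3 the LPS minus saline difference turned to -1492 intervals (main value 21438) and to -1.97 Mb of covered length (main value 8.09), and without saline replicate 2 that in lost windows in hippocampus turned to 0.572 points (main value -9.42); over all 5 libraries left out the differences ranged from -1492 to 44367 intervals, from -1.97 to 18.2 Mb and from -19.9 to 0.572 points. With the 50000 strongest peaks of each library there were 1338 gained and 1276 lost windows, the share near gene ends turned to 0.255 points (main value -0.882), and peak presence at higher regions of the authors' deposited table differed by 8.87 points in place of 53.5. With a −log10 q of 5 or more, 1227 windows were lost, peak presence at lower regions of the authors' deposited table differed by -31 points in place of -21.7, and 11 of the 17 lists had a gained share above that of all windows in place of 7. A rank gap above 0 gave 21428 windows higher and 20901 lower. At an FDR of 0.01 the authors' deposited table held 2471 higher and 212 lower regions, and presence at the higher regions of the authors' deposited table differed by 61.9 points. Leaving out 1 library moved presence at lower regions of the authors' deposited table to between -38.6 (without saline replicate 3) and -4.69 points (without saline replicate 2), and the number of lists above all windows to between 6 and 12 (12 without saline replicate 3). The cause of these changes was not tested beyond the number of libraries and peaks used. The striatal list had a gained share above that of all windows without each library in turn, but not among the strongest peaks (0.985%, against 1.63%), where astrocyte genes had 0 gained windows. Start sites from the promoter table and the list counts without each library were added after the data were seen. No paired analysis was possible because no animal was in both groups, and an equal replicate number does not make a pair. The lists carry no depth, so a missing peak may be a weak one.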
